A study of Mus musculus with 4 samples.

Results

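The ionotropic glutamate receptor subunits examined here were the AMPA receptor subunits Gria1, Gria2, Gria3 and Gria4, the NMDA receptor subunits Grin1, Grin2a, Grin2b and Grin3a, and the kainate receptor subunits Grik1 and Grik2. They were taken by gene symbol, and all 10 were present in each of the 4 expression matrices, which together listed 40091 genes. The matrices came from single-nucleus RNA sequencing (snRNA-seq) of mouse thalamus in a model of central post-stroke pain, in which a thalamic haemorrhage is produced by collagenase IV, an enzyme that digests the vessel wall. Wild-type adult C57BL6 mice, about 7 to 8 weeks old, received saline (NS group) or Coll IV (COL group) by microinjection into the right ventral posterior medial and ventral posterior lateral nuclei, and tissue was taken 7 days later. Each group had 2 libraries (NS replicates 1 and 2, COL replicates 1 and 2), and each library pooled 3 mice of 1 group, so that differences between single animals could not be seen. The p-values of COL against NS within a class measure the spread between pools. Comparisons between classes or subsets took the library as a block, so their p-values measure how the class differences vary over the 4 libraries. Some of the GABA neurons carried the forebrain marker Dlx6os1, and where in the dissected tissue they lay is not given in the sources used here.

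Ionotropic glutamate receptors are tetrameric channels opened by glutamate. AMPA receptors carry most of the fast excitatory current, and the edited Gria2 subunit makes them nearly impermeable to calcium. NMDA receptors need the obligatory subunit Grin1 together with Grin2 or Grin3 subunits, pass calcium and open fully only in a depolarized membrane, while kainate receptors modulate excitability and transmitter release on both sides of the synapse. In the thalamus, relay neurons receive glutamate from sensory afferents and from the cortex. Astrocytes and oligodendrocyte precursor cells (OPC) are also known to carry some of these receptors.

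The calcium permeability of AMPA and kainate receptors is set at the Q/R site of the pore loop, where the genomic glutamine codon of Gria2, Grik1 and Grik2 can be edited to read as arginine. The reference bases around that codon are shown because the results below concern the amount of Gria2 against its relatives, and because the UMI counts (counts of unique molecular identifiers, one per captured molecule) do not show whether a transcript was edited. Each line gives 27 bases of the transcript strand in GRCm38 (annotation GENCODE M21), 5′ to 3′, with the glutamine codon in capitals.
Gria1: ggggccttcatgCAGcaaggatgtgac
Gria2: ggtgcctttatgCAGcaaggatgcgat
Gria3: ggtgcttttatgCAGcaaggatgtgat
Gria4: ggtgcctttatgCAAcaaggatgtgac
Grik1: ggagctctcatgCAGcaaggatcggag
Grik2: ggagctctcatgCAGcaaggttctgag
The Gria2 window lies at chr3:80706899-80706925 on the minus strand in coding exon 11 of 16, and those of Gria1, Gria3 and Gria4 lie at chr11:57243082-57243108 (plus strand, exon 11 of 16), chrX:41610253-41610279 (plus strand, exon 11 of 16) and chr9:4464125-4464151 (minus strand, exon 12 of 17). The windows of Grik1 and Grik2 span an exon junction, with the codon itself at chr16:87940542-87940544 and chr10:49244329-49244331, both on the minus strand. Gria2 matched Gria3 at 25 of 27 bases and Grik2 at 19 of 27, and Grik1 matched Grik2 at 25 of 27. Gria4 was the member whose glutamine codon ended in A.

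The genes were long. Grik2 (chr10:49094833-49788766, minus strand) spanned 694 kb, Grin2b (chr6:135713233-136173511, minus strand) 460 kb and Grin2a (chr16:9567898-9995560, minus strand) 428 kb. Gria2 (chr3:80681450-80802835, minus strand) spanned 121 kb and Gria1 (chr11:57011387-57330244, plus strand) 319 kb, and Grin1 (chr2:25291181-25319187, minus strand) was the only member under 100 kb, at 28 kb. Antisense gene models overlapped Grin1 (Grin1os) and Grin2b (4 models), and reads of the 2 strands cannot be told apart where the counting did not use strand, which is not given in the sources used here. The promoters of Gria2 and Grik2 are shown because these were the members that were lower, respectively higher, in the COL libraries in the largest number of classes. RefSeq gives the 250 bases before and 50 after each start site (GRCm38.p6). Capitals mark any match on either strand to 1 of 4 motifs. The first was the GC box, written GGGCGG, to which promoter factors of the Sp family bind. The second was the box named after its letters TATAAA, which positions the transcription machinery. The third was the core of the cyclic AMP response element, written TGACG, which lies in promoters controlled by neuronal activity. The last was the E-box, written CACGTG, which basic helix-loop-helix factors recognize.
Gria2, chr3:80802786-80803085, minus strand: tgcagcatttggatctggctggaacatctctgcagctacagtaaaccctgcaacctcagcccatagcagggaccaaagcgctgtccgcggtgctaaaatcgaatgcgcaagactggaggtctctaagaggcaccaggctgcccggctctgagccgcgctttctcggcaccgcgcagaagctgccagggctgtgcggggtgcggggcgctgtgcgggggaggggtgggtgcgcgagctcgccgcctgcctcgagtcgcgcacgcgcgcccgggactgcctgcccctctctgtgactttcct
Grik2, chr10:49788705-49789004, minus strand: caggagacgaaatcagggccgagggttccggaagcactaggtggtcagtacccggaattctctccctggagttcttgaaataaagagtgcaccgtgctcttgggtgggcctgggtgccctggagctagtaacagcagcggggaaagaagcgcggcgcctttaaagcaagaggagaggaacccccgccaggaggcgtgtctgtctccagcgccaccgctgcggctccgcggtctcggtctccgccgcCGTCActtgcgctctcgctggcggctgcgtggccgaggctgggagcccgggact
Of 32851 promoters of this length, 35.7% held GGGCGG, 13.6% TATAAA, 20.8% TGACG and 7.15% CACGTG, and the median GC content was 52.7%. The Gria2 window had a GC content of 65.7% and held none of the 4 motifs, and the Grik2 window had 64.7% and held a single TGACG match. Of the other members, Gria4 and Grin1 had an entry in the same table.

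Nuclei were sorted into 6 classes by marker panels that contain no receptor subunit. Of 32332 barcodes, 32291 passed the filter on genes and mitochondrial UMIs, with 68723738 to 77546840 UMIs per library, and 8 to 31 barcodes were shared by any pair of libraries. Neurons (13145 nuclei) were split by Gad1 and Gad2, which make GABA, and by Slc17a6, the vesicular glutamate transporter of the thalamus. This gave 1422, 820, 633 and 772 GABA neurons and 705, 698, 896 and 573 glutamatergic neurons in the libraries, NS first and then COL (the order of all values in groups of 4). Every panel was highest in its own class in all libraries, which the sorting by these panels brings about, so it is no check of the classes. The neuron panel stood at 4990 to 6300 CPM (UMIs scaled to a sum of 1000000 per library and class) in neurons and at 971 to 2011 CPM in the 4 glial classes. The median depth per nucleus was higher in both COL libraries than in both NS libraries in each class, for example 3215 and 2968 against 5276 and 5970 UMIs in oligodendrocytes. Astrocytes numbered 1065 and 871 in NS and 173 and 270 in COL. Fold changes come from the fit, whose TMM scaling centres the bulk of the genes, and can differ from the ratio of the CPM given beside them. The median log2 ratio of plain CPM over all genes was -0.13 for COL over NS in GABA neurons (0.01 in the fit) and -0.09 to -0.06 in the other classes (-0.02 to 0.01 in the fit). It was 0.18 for GABA over glutamatergic neurons (0.04 in the fit), -0.23 for Tcf7l2-positive over Tcf7l2-negative neurons (-0.04) and 0.28 for microglia over neurons (-0.05).

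The first question was where each subunit was expressed. Gria1 was highest in astrocytes, Grin3a was highest in OPC, and Grin1, Grin2a and Grin2b were highest in neurons. In the fit across all genes and classes, 9 of the 10 members differed between astrocytes and neurons (1 higher, 8 lower), beside 56.3% of 20109 genes (27.7% higher, 28.6% lower). In oligodendrocytes 9 members were lower and none higher, beside 70.2% of the genes (36.3% lower, 33.9% higher). In OPC 1 member was higher and 6 lower, beside 47.1% (22.4% higher, 24.8% lower), and in microglia all 10 were lower, beside 63.7% (32.5% lower, 31.2% higher). The median log2 fold change of the members was -1.76, -2.02, -0.53 and -1.72 in astrocytes, oligodendrocytes, OPC and microglia, where that of all genes lay between -0.05 and 0.

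Gria1, an AMPA subunit linked to synaptic plasticity, stood at 2547, 1902, 1986 and 1593 CPM in astrocytes, in the order NS, then COL. It stood at 1049, 750, 1347 and 1058 CPM in GABA neurons and at 705, 571, 739 and 850 CPM in glutamatergic neurons. The astrocyte libraries were above every neuron library without overlap, and the fitted astrocyte level was 2.17-fold the neuron level (log2 fold change 1.12 ± 0.12 (SE), adjusted p = 3.1e-08). The neuron panel was at 1234 to 1365 CPM in the same astrocyte sums, below its level in neurons, but the sorting used this panel. The summed level of 8 neuron genes that the sorting did not use was 1333 to 1820 CPM in astrocytes. It was 4404 to 5072 CPM in glutamatergic and 4664 to 5518 CPM in GABA neurons. Detection followed the level. After each nucleus was thinned to 2000 UMIs, a Gria1 UMI was found in 91.9%, 83.3%, 83.7% and 78.1% of astrocytes (95.2%, 92.1%, 92.5% and 94.4% before thinning), against 36.2%, 22.6%, 37.9% and 34.6% of microglia, taken as the background class (38.7%, 25.1%, 60.5% and 55.4% before).

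Gria2 ranked close together in several classes. Its mean was 1066 ± 246 CPM in OPC, 1031 ± 200 in GABA neurons, 898 ± 202 in astrocytes and 765 ± 128 in glutamatergic neurons (SD, n = 4 libraries), and each of these neighbours overlapped. Microglia (403 ± 135) and oligodendrocytes (264 ± 35.4) formed the lower end. Neither the astrocyte level (93.3% of neurons, adjusted p = 0.38) nor the OPC level (109%, adjusted p = 0.28) was separated from the neuron level by the test. Gria3 and Gria4, the other AMPA subunits, were at 505 ± 33.3 and 1301 ± 122 CPM in OPC, within the range of GABA neurons (505 ± 65.2 and 1449 ± 149). In astrocytes they reached 24.1% and 28.6% of the neuron level, and in oligodendrocytes 21.5% and 42.2%.

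Of the NMDA subunits, 3 were highest in neurons and Grin3a was not. Grin1, the obligatory subunit, stood at 365 ± 25.8 CPM in glutamatergic and 344 ± 17.4 CPM in GABA neurons, and at 84.1 ± 5.14 to 140 ± 22.5 CPM in glia. Grin2a and Grin2b, the subunits that bind glutamate, had fitted levels in astrocytes of 19.1% and 30.5% of those in neurons, in oligodendrocytes of 16.2% and 19.6%, and in OPC of 22.4% and 23.7%. Grin3a, a subunit that binds glycine and lowers calcium permeability, was higher in OPC. It stood at 500, 542, 514 and 444 CPM in OPC, at 242, 262, 304 and 259 CPM in GABA neurons and at 253, 232, 264 and 235 CPM in glutamatergic neurons, without overlap, and the fitted OPC level was 1.79-fold that of neurons (log2 fold change 0.84 ± 0.09, adjusted p = 1.4e-08). In astrocytes it reached 76.7% of the neuron level. After thinning, 61.3%, 66.4%, 57.8% and 52.8% of OPC had a Grin3a UMI (84.6%, 84.7%, 89.8% and 85.2% before), against 13.3%, 8.94%, 16.0% and 16.7% of microglia.

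Of the kainate subunits, Grik2 had levels in oligodendrocytes that differed between the groups. It stood at 1015 and 924 CPM in NS, below every neuron library, and at 2429 and 1852 CPM in COL, where the neuron libraries lay between 1442 and 1916 CPM. Its mean over the 4 libraries was 1555 ± 717 CPM in oligodendrocytes, between GABA neurons (1787 ± 106) and glutamatergic neurons (1422 ± 67.2), and the fitted level was 95.1% of that in neurons (adjusted p = 0.63), a value pooled over both groups whose sign turned without either NS library. Grik1 was at 412 ± 26.9 CPM in OPC, close to glutamatergic neurons (416 ± 30.4), and its fitted level in OPC was 80.7% of the neuron mean (log2 fold change -0.31, adjusted p = 0.024). This call was kept under 2 of 7 alternatives. It was lost with DESeq2, without COL replicate 1 (adjusted p = 0.108) or COL replicate 2 (0.0709), with doublets removed and with nuclei thinned before gating, where the log2 fold change was -0.15 (adjusted p = 0.501). In oligodendrocytes Grik1 was at 47.1% and in astrocytes at 24.05% of the neuron level.

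Low glial levels were set beside microglia and beside genes of neurons. All 10 members lay between 24.5% (Grin2a) and 35.3% (Gria2) of the neuron level in microglia. The 8 neuron genes that were kept out of the gate lay between 29.4% (Snhg11) and 113% (Scg2) in microglia, between 24.2% and 104% in astrocytes, between 21.8% and 119% in oligodendrocytes and between 28.1% and 82.7% in OPC, with Snhg11, a neuron-rich long noncoding RNA, the lowest in each class. Gria1 in astrocytes (217%) lay above all 8 of these genes, as did Grin3a (179%), Gria2 (109%), Gria3 (98.7%) and Gria4 (89.2%) in OPC. The Grik2 value in oligodendrocytes (95.1%) is not placed among them, because it pools NS and COL levels that lay apart. Grin1 and Gria3 were close to the Snhg11 ratio in astrocytes (25.2% and 24.1%) and in oligodendrocytes (24.2% and 21.5%). In astrocytes Grik1 (24.05%) was close to the Snhg11 ratio as well, and Grin2a (19.1%) lay below it. Members below the Snhg11 ratio were also Gria1 (20.3%), Grin2b (19.6%) and Grin2a (16.2%) in oligodendrocytes. The same held for Grin2b (23.7%) and Grin2a (22.4%) in OPC. What part of the low glial levels was neuron RNA was not tested.

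**Figure D1:**
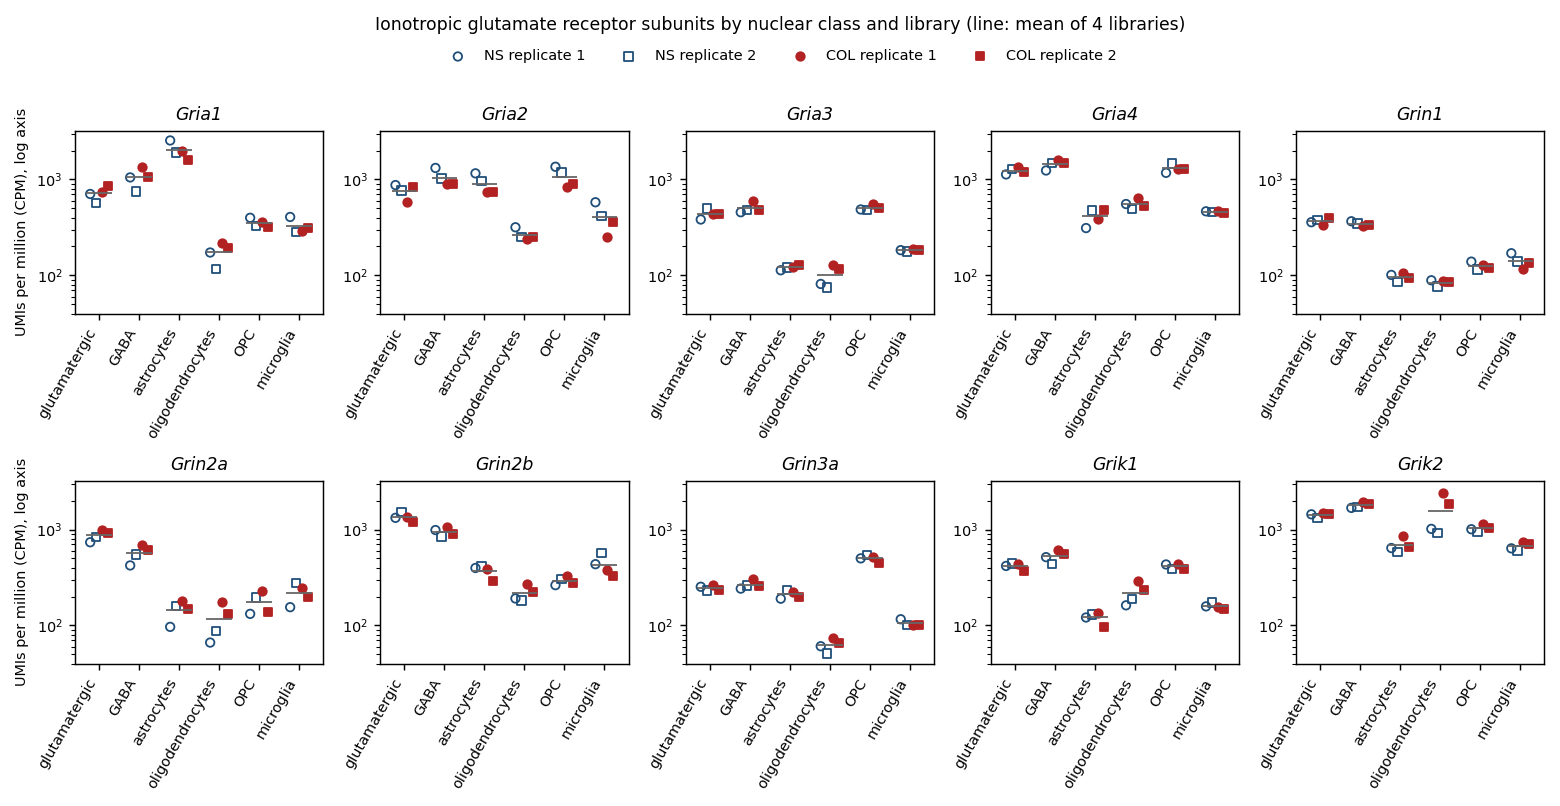
CPM of each receptor subunit (log axis) in glutamatergic neurons, GABA neurons, astrocytes, oligodendrocytes, OPC and microglia, with 1 marker per library (open blue, NS; filled red, COL) and a line at the mean of the 4 libraries. Gria1 lies highest in astrocytes (1593 to 2547 CPM), Grin3a in OPC (444 to 542 CPM), and Grik2 in oligodendrocytes separates NS (1015 and 924 CPM) from COL (2429 and 1852 CPM).

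**Figure D2:**
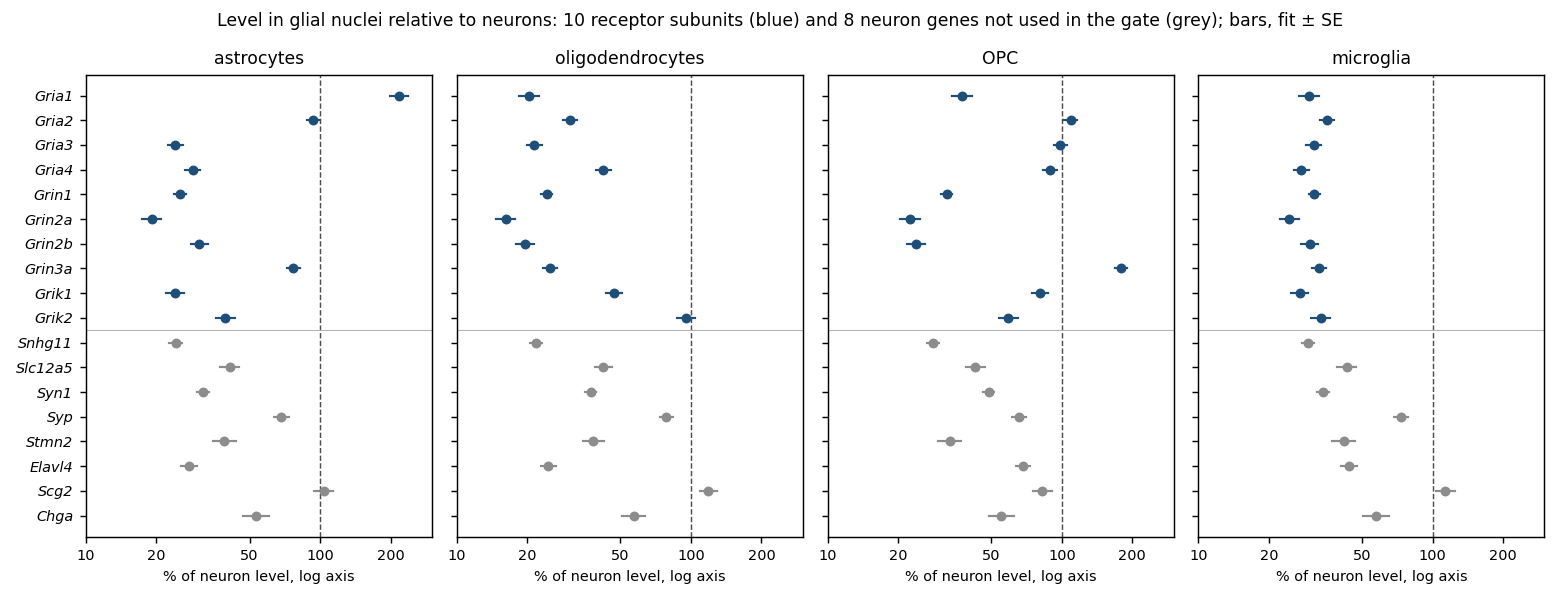
Fitted level in each glial class as a percent of the mean neuron level (log axis, bars ± SE) for the 10 subunits (blue) and 8 neuron genes that the gate did not use (grey), with a dashed line at 100%. In microglia the subunits lie together between 24.5% and 35.3%, whereas in astrocytes Gria1 reaches 217% and in OPC Grin3a reaches 179%.

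The second question was how GABA and glutamatergic neurons differ. The NMDA subunits Grin1, Grin2a and Grin2b were lower in GABA neurons and the AMPA subunits Gria1 and Gria2 higher, with Grin1 and Gria2 at the threshold of the test. Between the 2 classes 5 of 10 members differed (2 higher and 3 lower in GABA neurons), beside 24.5% of 19439 genes (12% higher, 12.5% lower). The median log2 fold change was 0.08 for the members and 0.04 for all genes. Grin2a stood at 422, 551, 691 and 608 CPM in GABA neurons and at 736, 838, 977 and 921 CPM in glutamatergic neurons. Every library was lower in its GABA neurons, and the fitted ratio was 0.59 (log2 fold change -0.76 ± 0.09, adjusted p = 0.00014). Grin2b stood at 987, 848, 1052 and 888 CPM against 1323, 1530, 1362 and 1189 CPM. The classes did not overlap (log2 fold change -0.65 ± 0.11, adjusted p = 0.0013), but with nuclei thinned before gating the log2 fold change was -0.19 (adjusted p = 0.547) and the call was lost.

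Gria1 was higher in GABA neurons of each library, with the values given above (log2 fold change 0.40 ± 0.11, adjusted p = 0.017). Gria2 stood at 1317, 1024, 897 and 888 CPM in GABA neurons and at 873, 770, 584 and 833 CPM in glutamatergic neurons. It was higher in the GABA neurons of each library, but its adjusted p of 0.0497 lay at the threshold (log2 fold change 0.30 ± 0.10), and 6 of 13 alternatives lost the call. Grin1 was also at the threshold (log2 fold change -0.22 ± 0.07, adjusted p = 0.048), with 366, 348, 328 and 332 CPM in GABA neurons against 358, 378, 333 and 392 CPM, and 7 of 13 alternatives lost it, with log2 fold changes from -0.29 to -0.03 over the 13. In NS replicate 1 the Grin1 CPM was higher in GABA neurons, and in the other libraries it was lower. Gria3, Gria4, Grin3a, Grik1 and Grik2 had log2 fold changes between -0.02 and 0.21 and did not pass the test.

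Within glutamatergic neurons, nuclei with at least 2 UMIs of Tcf7l2, a transcription factor of thalamic relay neurons, were compared with the rest. These nuclei made up 61.6%, 71.9%, 90.7% and 71.4% of the glutamatergic neurons of the 4 libraries. Of the 10 members 4 differed (3 higher, 1 lower), beside 25% of 17295 genes (12.9% higher, 12.1% lower), and the medians were 0.24 for the members and -0.04 for all genes. Grin2a stood at 846, 918, 1009 and 1024 CPM in Tcf7l2-positive and 429, 517, 563 and 604 CPM in Tcf7l2-negative neurons, 2.06-fold higher (log2 fold change 1.04 ± 0.09, adjusted p = 1.4e-07). Grin2b stood at 1457, 1717, 1405 and 1275 CPM against 953, 779, 802 and 925 CPM, 1.92-fold higher (log2 fold change 0.94 ± 0.11, adjusted p = 5e-06). Neither gene overlapped between the subsets. In Tcf7l2-negative neurons both genes lay near their levels in GABA neurons (422 to 691 CPM of Grin2a, 848 to 1052 CPM of Grin2b). The higher levels of glutamatergic neurons were thus found in their Tcf7l2-positive part. Tcf7l2-negative and GABA neurons were not tested against each other. In Tcf7l2-positive neurons Grin1 was higher (log2 fold change 0.30 ± 0.09, adjusted p = 0.016) and Gria2 lower (log2 fold change -0.38 ± 0.10, adjusted p = 0.0068). The Grin1 call was lost with 1 UMI as the cut (adjusted p = 0.0683) and when either NS library was left out (0.053 for replicate 1, 0.126 for replicate 2), and the Gria2 call was lost without COL replicate 1 (0.0511). Gria2 stood at 735, 694, 561 and 801 CPM in the positive and 1256, 1079, 879 and 934 CPM in the negative neurons, so the lower Gria2 level of glutamatergic neurons was found in their Tcf7l2-positive part, where the levels lay below those of the GABA neurons in every library. Positive nuclei were deeper than negative nuclei in each library, with median UMIs of 14599.5 to 20707 against 9486.5 to 15811.

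GABA neurons with at least 2 UMIs of Dlx6os1, a noncoding RNA of forebrain GABA neurons, did not differ from the other GABA neurons in any member by edgeR, beside 1.11% of 17632 genes (0.692% higher, 0.414% lower). There were 5 members with an unadjusted p under 0.05, and the log2 fold changes lay between -0.08 (Grin2a) and 0.24 (Gria1). With 1 UMI as the cut, 1 member was called. The positive share was 23.3%, 5.49%, 23.1% and 15.5%, with 45 nuclei in NS replicate 2.

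**Figure D3:**
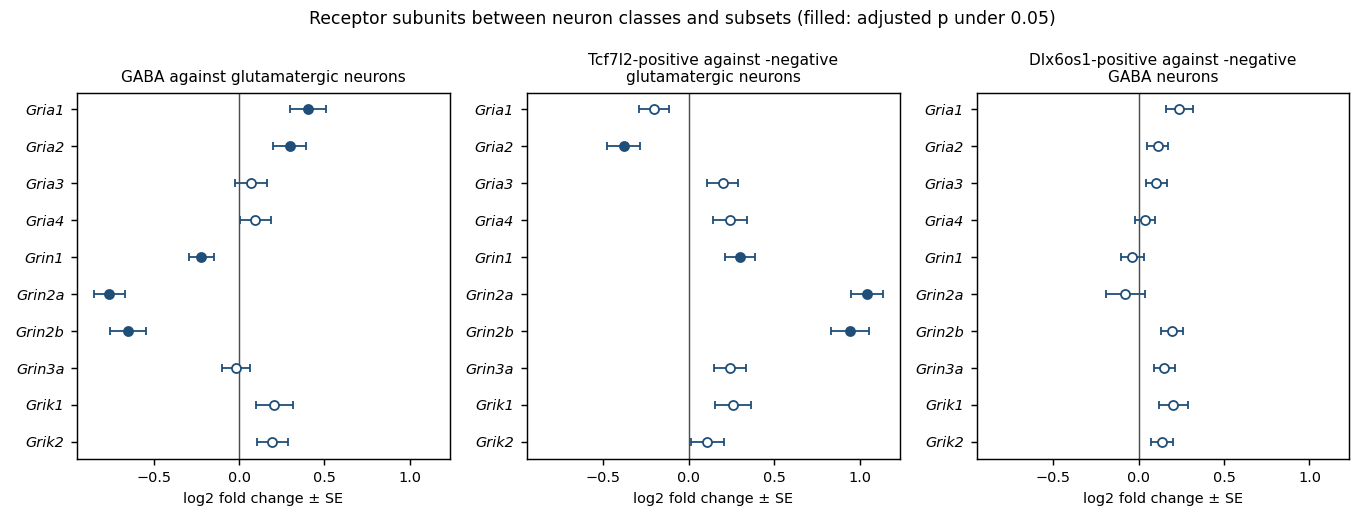
Log2 fold change ± SE of each subunit for GABA against glutamatergic neurons, for Tcf7l2-positive against Tcf7l2-negative glutamatergic neurons and for Dlx6os1-positive against Dlx6os1-negative GABA neurons (filled, adjusted p under 0.05). Grin2a and Grin2b lie at -0.76 and -0.65 in the first panel and at 1.04 and 0.94 in the second, and no subunit is filled in the third.

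The third question was what the haemorrhage changed in neurons. By edgeR no member was called between COL and NS in glutamatergic neurons, beside 0% of 18072 genes, or in GABA neurons, beside 0% of 18767 genes. At an unadjusted p under 0.05 there were 3476 and 4948 genes, among them none and 3 of the members (Gria1, Grin2a and Grik1 in GABA neurons). DESeq2 called 650 and 1129 genes and no member. The medians of the members and of all genes were 0.07 and -0.02 in glutamatergic neurons and 0.32 and 0.01 in GABA neurons. Genes of at least 100 kb, to which all members but Grin1 belong, had medians of 0.16 and 0.29 in these classes.

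Grin2a was higher in both COL libraries than in both NS libraries in each neuron class, with the levels given above, and its log2 fold changes were 0.32 ± 0.18 (adjusted p = 0.39) and 0.56 ± 0.22 (adjusted p = 0.18) in glutamatergic and GABA neurons. In glutamatergic neurons Gria1, Grin2a and Grik2 were higher in both COL libraries, where 19.8% of all genes were so, and none was lower, where 29.7% of all genes were so. In GABA neurons Gria1, Gria4, Grin2a, Grik1 and Grik2 were higher (19.8% of all genes) and Gria2 and Grin1 lower (38.5%). Gria2 had COL levels of 897 and 888 CPM and NS levels of 1317 and 1024 CPM in GABA neurons (log2 fold change -0.24 ± 0.18, adjusted p = 0.42). In glutamatergic neurons its groups overlapped, because COL replicate 2 (833 CPM) lay between the NS libraries and COL replicate 1 (584 CPM) below both. Grin1 was lower in both COL libraries as CPM in GABA neurons (328 and 332 against 366 and 348), but its fitted log2 fold change was 0.03 ± 0.14 after the TMM scaling. The share of Tcf7l2-positive neurons was highest in COL replicate 1. With Tcf7l2-positive nuclei alone, the fitted changes of Gria3 and Grin1 in glutamatergic neurons turned their sign, and those of the other members did not. Beyond this setting, the part of this share in these values was not tested.

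The effect of COL was also compared between the neuron classes. No member differed, beside 0% of 19439 genes (1039 at an unadjusted p under 0.05), and DESeq2 called none. Grik1 had the largest difference among the members (log2 0.50 ± 0.14, unadjusted p = 0.0059, adjusted p = 0.87), with 515, 437, 612 and 550 CPM in GABA neurons and 417, 440, 433 and 372 CPM in glutamatergic neurons. Its groups were separate in the former and overlapped in the latter.

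In oligodendrocytes several subunits were higher after COL. Of the 10 members 4 rose and none fell, where 21.9% of 17756 genes were called, 9.33% rose and 12.5% fell. The median log2 fold change was 0.56 for the members and 0.01 for all genes. Grik2 stood at 1015 and 924 CPM in NS and at 2429 and 1852 CPM in COL, 2.38-fold higher (log2 fold change 1.25 ± 0.22, adjusted p = 0.0078). Grin2a stood at 66.3 and 87.2 CPM against 177 and 132 CPM (log2 fold change 1.10 ± 0.23, adjusted p = 0.012). Gria3 stood at 81.3 and 74.3 CPM against 129 and 116 CPM (log2 fold change 0.75 ± 0.16, adjusted p = 0.014). Grik1 stood at 162 and 188 CPM against 293 and 232 CPM (log2 fold change 0.68 ± 0.20, adjusted p = 0.041). The groups did not overlap for any of the 4 genes. Gria1 (173 and 116 CPM against 215 and 192 CPM, adjusted p = 0.054), Grin2b (191 and 181 CPM against 271 and 224 CPM, adjusted p = 0.065) and Grin3a (60.7 and 51.2 CPM against 74.8 and 66.2 CPM, adjusted p = 0.095) were also separate without passing the test, and Gria2 was lower in COL (240 and 249 CPM against 317 and 251 CPM, adjusted p = 0.64). In all, 7 members were higher in both COL libraries, where 28.4% of all genes were so.

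Detection after thinning moved the same way. A Grik2 UMI was found in 80.6% and 76.7% of NS and 95.4% and 89.0% of COL oligodendrocytes at 2000 UMIs (89.5%, 84.6%, 99.6% and 99.0% before), and in 45.4% and 43.8% of NS and 70.9% and 65.8% of COL microglia. A Grin2a UMI was found in 10.8% and 12.4% of NS and 28.7% and 21.5% of COL oligodendrocytes (18.2% to 18.9% and 47.9% to 58.7% before), and in 18.8% and 19.6% of NS and 35.8% and 26.8% of COL microglia. The shares in microglia, taken as the background class, were higher in COL as well, and for Grin2a they were above those in oligodendrocytes in each library. The same held for Gria3, found in 12%, 11.9%, 21.2% and 19.7% of oligodendrocytes (20.1%, 18.2%, 47.8% and 47.1% before) and in 19.9%, 14.9%, 24.8% and 23.0% of microglia. Grik1 went the other way, with 19%, 21.7%, 33.1% and 26.9% of oligodendrocytes against 16.2%, 11.9%, 25.3% and 20.3% of microglia. The neuron panel was higher in microglia (1790 to 2011 CPM) than in oligodendrocytes (971 to 1335 CPM), so microglia were not an equal background for oligodendrocytes. In the fit the log2 fold change of Grin2a in microglia was 0.09 (adjusted p = 0.84), but 0.68 with doublets removed (adjusted p = 0.0219).

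Other measures moved with COL in the same sums. The OPC panel was at 248 and 215 CPM in NS and 563 and 589 CPM in COL oligodendrocytes, the neuron panel at 1096 and 971 against 1335 and 1202 CPM, and Snhg11 at 811 and 658 against 955 and 918 CPM (log2 fold change 0.45, adjusted p = 0.10). Of the 8 neuron genes outside the gate, none rose and 4 fell (Chga, Stmn2, Syp and Scg2). Long genes as a whole were higher: the 2532 tested genes of at least 100 kb had a median log2 fold change of 0.40 and 28.6% of them rose, whereas the 15224 shorter genes had a median of -0.07 and 6.13% of them rose. All members but Grin1 belong to the long genes, and the 4 that rose are 278 to 694 kb long. The part of gene length, depth, OPC RNA and neuron RNA in these increases was not tested. Leaving out NS replicate 1 or NS replicate 2 left a single call, and without COL replicate 2 there were 8. Grin2a kept its call under all 12 alternatives, Grik2 and Gria3 under 10 and Grik1 under 9.

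In the other glial classes the called member was Gria2. It fell in OPC, from 1355 and 1182 CPM in NS to 836 and 889 CPM in COL (log2 fold change -0.50 ± 0.14, adjusted p = 0.030), where 15.6% of 14190 genes were called, 8.89% fell and 6.74% rose. It also fell in microglia, from 578 and 418 CPM to 254 and 364 CPM (log2 fold change -0.62 ± 0.20, adjusted p = 0.049), where 19% of 13528 genes were called, 9.19% fell and 9.78% rose. The groups were separate in both classes. The OPC call was kept under 5 of 12 alternatives and the microglia call under 4. Each was lost with the replicate block, the OPC call was also lost without NS replicate 1 or NS replicate 2, and the microglia call without NS replicate 1 or COL replicate 1. The microglia call was also lost with DESeq2, the larger lead, doublets removed (log2 fold change -0.36) and nuclei thinned after gating (-0.30) or before it (-0.13, adjusted p = 0.654). With 2000 UMIs per nucleus, 45.0% and 41.7% of NS and 39.4% and 45.9% of COL microglia had a Gria2 UMI (52.6%, 44.9%, 63.3% and 72.7% before thinning), and the groups overlapped after thinning. The OPC call was lost as well with RLE normalization, the larger lead and both kinds of thinning (-0.37 and -0.43). No alternative changed the sign of Gria2. Other members were called higher in COL microglia with doublets removed (Grin2a, Grik1 and Grik2, log2 fold changes 0.68 to 0.84) and with nuclei thinned before gating (the same 3 genes and Gria4, 0.74 to 0.88), Grin2a also with the larger lead (0.68) and Grik2 with nuclei thinned after gating (0.62). The microglial Gria2 level was 35.3% of that of neurons, within the range of the neuron genes outside the gate. Of these 8 neuron genes, 4 fell and none rose in OPC (median log2 fold change -0.49) and likewise in microglia (-0.63), in each case Chga, Stmn2, Syp and Scg2. These 4 also had negative log2 fold changes in glutamatergic (-0.76 to -0.21) and GABA neurons (-1.18 to -0.27), without a call. The log2 fold changes of Snhg11, Syn1, Elavl4 and Slc12a5 were 0.01, 0.04, -0.08 and -0.39 in OPC. In microglia they were -0.05, 0.07, -0.23 and -0.61. The summed level of the 8 genes was at 2069 and 1794 CPM in NS and 1563 and 1764 CPM in COL in OPC, and at 2493 and 2231 against 1778 and 1979 CPM in microglia. The neuron panel was at 1858 and 1717 against 1847 and 1761 CPM in OPC and at 2011 and 1948 against 1871 and 1790 CPM in microglia. The part of neuron RNA in the lower Gria2 was not tested. In OPC the OPC panel was also higher in COL (7902 and 8081 against 11521 and 11098 CPM).

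In astrocytes no member was called by edgeR or DESeq2, beside 11.5% of 14568 genes (4.75% higher, 6.76% lower), and 1 member had an unadjusted p under 0.05. That member was Gria2, at 1157 and 958 CPM in NS and 735 and 742 CPM in COL (log2 fold change -0.46 ± 0.15, adjusted p = 0.068). Gria1 stood at 2547 and 1902 against 1986 and 1593 CPM, and the groups overlapped. When the nuclei with the highest doublet scores were removed, 6 members were called in astrocytes (5 higher, 1 lower), and the log2 fold change of Grin2a moved from 0.40 to 1.28. Over all classes, this setting removed more nuclei from the NS libraries (749 and 869) than from the COL libraries (281 and 314). The median of the members was 0.09 in astrocytes, 0.04 in OPC and -0.04 in microglia, beside -0.02, -0.02 and 0 for all genes.

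Gria2 and Grik2 were the members with the same order in most classes. Gria2 was lower in both COL libraries than in both NS libraries in 5 classes, all but glutamatergic neurons, and Grik2 was higher in both COL libraries in all 6. The fitted change of Gria2 in oligodendrocytes turned its sign under 3 of 12 alternatives and that of Grik2 in glutamatergic neurons under 1 of 15. The classes of 1 library share its mice and its free RNA, so these are not 6 independent observations. Grik2 is the longest member (694 kb), and Gria2 (121 kb) is shorter than every member but Grin1 (28 kb). Long genes were higher in COL in all 6 classes, and the part of gene length in these orders was not tested. Taken class by class, 34.2% to 38.9% of all genes were lower in this sense in the 5 classes. In the 6 classes, 19.8% to 28.4% of all genes were higher. The share of all genes, or of long genes, with the same order in 5 or 6 classes at once was not counted. It cannot be worked out from the shares of single classes, because the classes share libraries. Whether the orders of Gria2 and Grik2 over the classes were unusual among all genes was therefore not tested. The members separate in the other glia were Gria3 (higher) and Grin2b (lower) in astrocytes, Gria3 (higher) in OPC, and Grin1, Grin2b and Grik1 (lower) in microglia. The fitted changes of these 3 in microglia and of Grin2b in astrocytes turned their sign under at least 1 alternative.

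**Figure D4:**
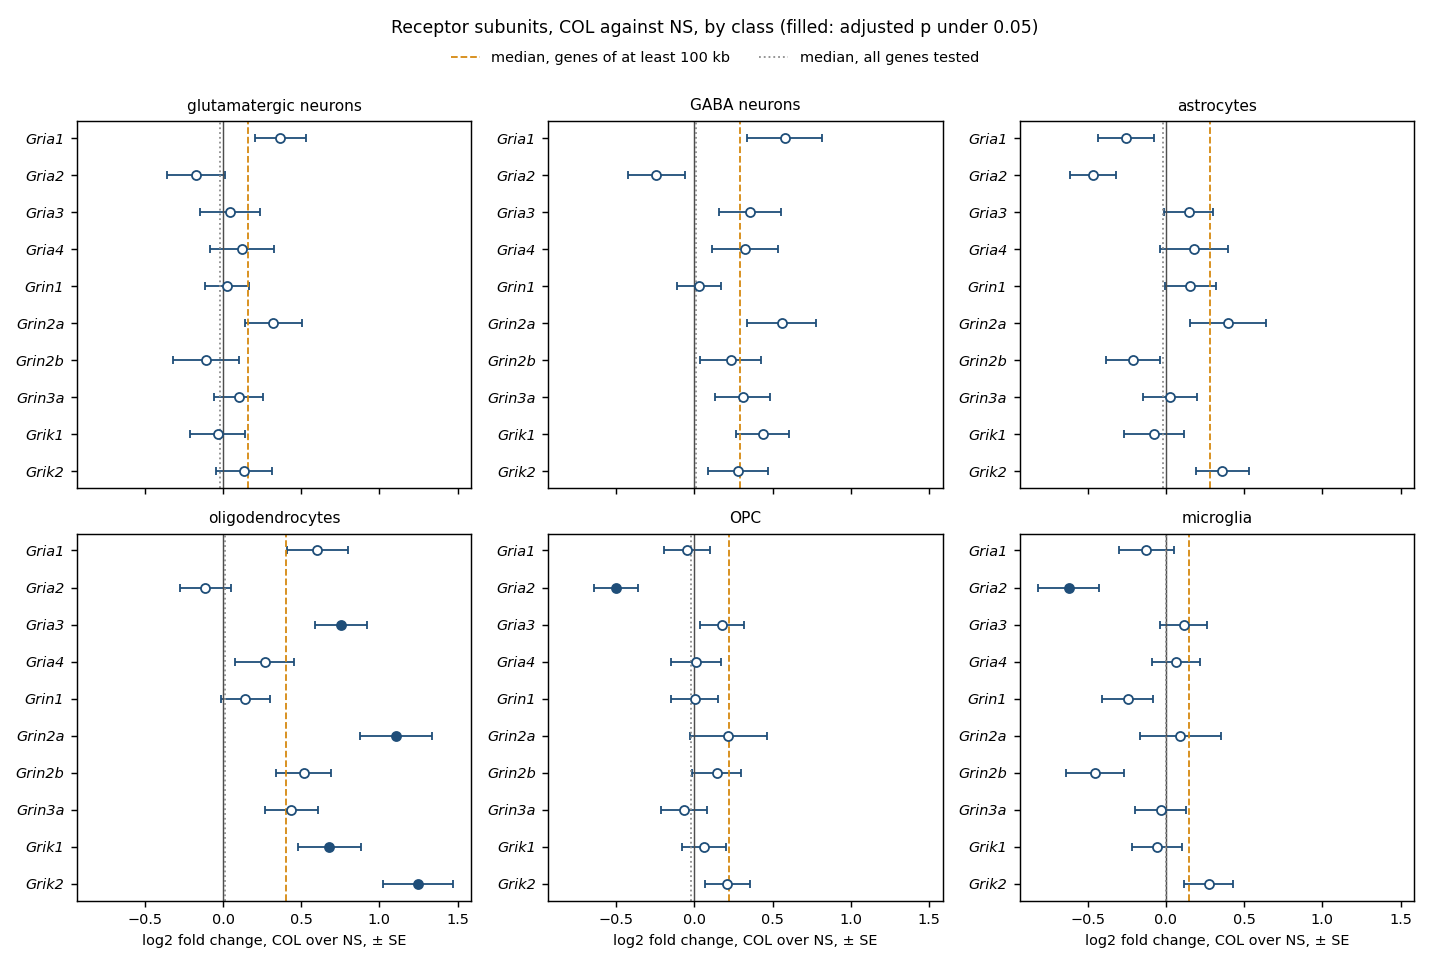
Log2 fold change ± SE, COL over NS, of each subunit in each of the 6 classes (filled, adjusted p under 0.05), with the median of all genes tested (grey dotted) and of genes of at least 100 kb (orange dashed). The filled points are Gria3, Grin2a, Grik1 and Grik2 in oligodendrocytes (0.68 to 1.25) and Gria2 in OPC (-0.50) and microglia (-0.62).

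The composition of each receptor family was measured as a share of its UMIs within a library and class, which depth does not change. These are shares of UMIs and not of channels, because the genes differ in length. Gria2 (121 kb) is shorter than Gria1, Gria3 and Gria4 (319, 278 and 378 kb), and long genes were higher in COL in every class. The part of gene length in the shares was not tested. Gria2 made up 28.3%, 24.7%, 18.8% and 25.2% of the Gria1 to Gria4 UMIs in glutamatergic neurons and 32.4%, 27.4%, 20.2% and 22.7% in GABA neurons. The COL libraries were below the NS libraries in GABA neurons, with a difference of -8.49 percentage points (two-sided exact permutation test, p = 0.333, the smallest that 2 against 2 allows), and overlapped them in glutamatergic neurons (-4.46 points, exact p = 0.667). The latter difference was -1.26 points without COL replicate 1, -7.65 without COL replicate 2 and -2.66 without NS replicate 1. The share was also lower in both COL libraries in astrocytes, oligodendrocytes, OPC and microglia, for example 27.7% and 29.6% against 39.7% and 34.2% in OPC. In microglia, taken above as the background class, it was 21% and 27.8% against 35.4% and 31.3%.

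The share of Grin2a in Grin2a plus Grin2b, which changes in the course of development and shapes the decay of the NMDA current, was 35.7%, 35.4%, 41.8% and 43.7% in glutamatergic neurons and 29.9%, 39.4%, 39.6% and 40.6% in GABA neurons. Both COL libraries lay above both NS libraries in each class, by 7.15 and 5.47 percentage points on average (exact permutation test, p = 0.333 each). In GABA neurons the difference without NS replicate 1 was 0.75 points. The share of Grik1 in Grik1 plus Grik2 lay between 20.2% and 24.9% in neurons, and the groups overlapped (exact p = 0.667 in each class). Over the 6 comparisons the adjusted p-values were 0.666 to 0.667. Between GABA and glutamatergic neurons the paired differences were 1.45, -1.73 and 0.12 points for the 3 shares (exact sign-flip permutation test, p = 0.375, 0.5 and 1, adjusted p = 0.75, 0.75 and 1 over the 3). Their direction was not the same in all libraries. COL replicate 2 went against the others for the Gria2 share, and NS replicate 2 did so for the Grin2a and Grik1 shares. The smallest p that 4 pairs allow is 0.125 and that of 2 against 2 is 0.333, so no shift of any size could have been called.

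**Figure D5:**
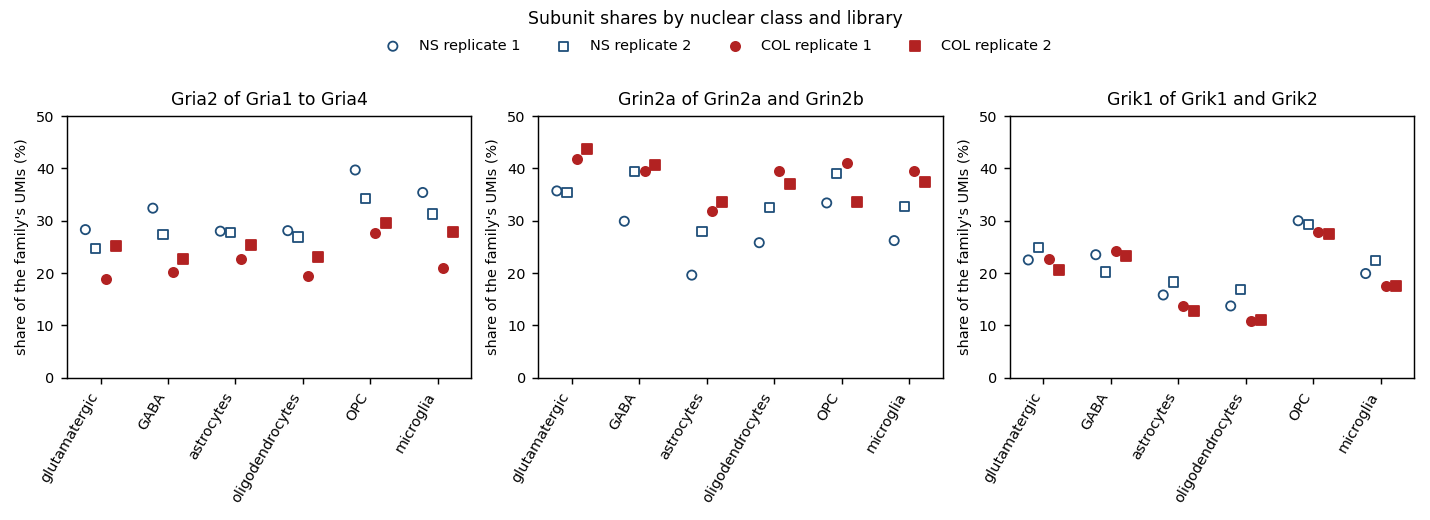
Share of the family's UMIs (percent) held by Gria2 among Gria1 to Gria4, by Grin2a among Grin2a and Grin2b and by Grik1 among Grik1 and Grik2, with 1 marker per library (open blue, NS; filled red, COL) in each class. The Gria2 share is lower in both COL libraries in all classes but glutamatergic neurons, where COL replicate 2 (25.2%) lies between the NS libraries (28.3% and 24.7%).

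Genes that act with these receptors were read from 5 lists of related genes. Between COL and NS, no gene of any list was called in either neuron class. In oligodendrocytes 5 of 15 auxiliary subunits rose and 1 fell, led by Cacng5 (log2 fold change 2.03 ± 0.21, adjusted p = 0.0012), a transmembrane AMPA receptor regulatory protein, and Cnih2 (log2 fold change -1.65 ± 0.26, adjusted p = 0.0059), which assists AMPA receptor export. Of 8 other ionotropic subunits 3 rose, among them Grik3 (0.85 ± 0.19 on the log2 scale) and Grid1 (0.77 ± 0.18). Of 19 scaffold, trafficking and editing genes 4 rose (Grip1, Shank3, Shank2 and Homer1, by 0.67 to 1.08), as did 4 of 7 tested metabotropic receptors, among them Grm8, Grm4 and Grm5 (by 0.74 to 1.01). Of the 9 genes of glutamate transport and metabolism, Slc1a2, a glutamate transporter of astrocytes, was the one called, and it fell (-0.73 ± 0.17). The astrocyte panel in the same sums was at 264 and 219 CPM in NS and 147 and 173 CPM in COL. Of all genes 9.33% rose and 12.5% fell in this class. The OPC panel was at 248 and 215 CPM in NS and 563 and 589 CPM in COL. Of genes of at least 100 kb 28.6% rose, and of shorter genes 6.13%. The part of OPC RNA and gene length in the increases of listed genes was not tested. The medians of these lists were 0.57, 0.50, 0.48, 0.74 and -0.05, beside 0.01 for all genes.

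In OPC, where 6.74% of all genes rose and 8.89% fell, Cacng5 (1.71 ± 0.27, adjusted p = 0.0023), Shisa9, Grik3 (1.12 ± 0.15, adjusted p = 0.00082), Grik4, Slc1a1 and Dlg4 rose and Slc1a2 fell, where the astrocyte panel was at 388 and 362 CPM in NS and 235 and 251 CPM in COL. In astrocytes, where 4.75% of all genes rose, 3 of 14 tested auxiliary subunits (Shisa6, Neto2 and Cacng4), the metabotropic receptors Grm5 and Grm8 and the scaffolds Dlg1 and Dlg4 rose, by 0.58 to 1.19. The OPC panel in astrocytes was at 1201 and 1152 CPM in NS and 1537 and 1316 CPM in COL, and the part of OPC RNA in these increases was not tested. Of genes of at least 100 kb, 16.3% rose in OPC and 12.8% in astrocytes, and of shorter genes 4.82% and 3.16%. The part of gene length in the increases of listed genes in both classes was not tested. In microglia, where 9.78% of all genes rose and 9.19% fell, Nsf and Adar, an RNA-editing enzyme, rose by 0.61 each, and the astrocyte transporters Slc1a2 and Slc1a3 fell by 1.07 and 0.84. The astrocyte panel in microglia was at 382 and 354 CPM in NS and 177 and 185 CPM in COL. The part of astrocyte RNA in the lower Slc1a2 and Slc1a3 of the other classes was not tested.

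Genes of the same lists also differed between GABA and glutamatergic neurons. Grin2c, an NMDA subunit, was lower in GABA neurons (-2.03 ± 0.17, adjusted p = 1.4e-05) and higher in Tcf7l2-positive glutamatergic neurons (3.13 ± 0.20, adjusted p = 1.6e-09). Adarb1, the enzyme that edits the Q/R site of Gria2, was lower in GABA neurons (-1.56 ± 0.10, adjusted p = 2e-06) and higher in Tcf7l2-positive neurons (1.93 ± 0.12, adjusted p = 2.1e-09). The metabotropic receptor Grm4 (-2.02 ± 0.07) and the auxiliary subunit Shisa6 (-1.61 ± 0.10) were also lower in GABA neurons, while Grm3 (1.49 ± 0.16) and Grik3 (0.87 ± 0.10) were higher. Beside 12% of all genes that were higher and 12.5% that were lower, 3 of 15 auxiliary subunits were higher and 6 lower, 4 of 19 scaffold, trafficking and editing genes higher and 10 lower, 1 of 7 metabotropic receptors higher and 4 lower, 2 of 8 other ionotropic subunits higher and 3 lower, and 4 of 9 transport genes lower and none higher. Dlx6os1-positive neurons had more Grm3, Homer1 and Dlg2 (0.28 to 0.43), and no gene of the other lists was called there.

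In glia against neurons, OPC had 2.94 ± 0.12 (log2) more Cacng4, an AMPA receptor regulatory protein, and more Grik4 (1.03 ± 0.09), and astrocytes had more Grin2c (1.85 ± 0.15) beside their transporters Slc1a3 (6.48 ± 0.13), which belongs to the astrocyte gate, and Slc1a2 (3.87 ± 0.14). Grm3 was higher in astrocytes (1.83 ± 0.14) and oligodendrocytes (2.67 ± 0.13). Of auxiliary subunits, 1 was higher and 9 lower in astrocytes, 1 and 12 in oligodendrocytes, and 4 and 6 in OPC. The same counts for metabotropic receptors were 1 and 6, 1 and 6, and 0 and 6. Other ionotropic subunits had 2 and 4, 0 and 7, and 5 and 2. Scaffold, trafficking and editing genes had 2 and 16, 2 and 16, and 2 and 14. Transport genes had 4 and 3, 2 and 6, and 4 and 2. Of all genes, 27.7%, 33.9% and 22.4% were higher and 28.6%, 36.3% and 24.8% lower. In microglia no auxiliary subunit, metabotropic receptor or other ionotropic subunit was higher, and 13 of 15, 7 of 7 and 7 of 8 were lower, beside 31.2% of all genes that were higher and 32.5% that were lower.

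The genes whose levels ran most like each member were sought among 20109 genes over the 24 sums of 6 classes and 4 libraries, which share libraries and depth. The Pearson correlation of log2 levels is given as a description. Gria1 ran with Gabrb1, a GABA-A receptor subunit (r = 0.962), and Adcy2 (0.951). Gria2 ran with Pygo1 (0.951) and Syn2 (0.947), Gria3 with Lrrtm4 (0.982) and Csmd1 (0.977), and Gria4 with Ccser1 and Ppfia2 (0.956 each). Grin1 ran with the neuron genes Snhg11 (0.988) and Cacna1b (0.986), Grin2a with Clvs1 (0.982) and Zmat4 (0.978), Grin2b with Patj (0.965) and Sept6 (0.964), and Grin3a with Brinp3 (0.986) and Kcnk10 (0.968). Grik1 ran with Ppfia2 (0.968) and Snap91 (0.952). Grik2 had the lowest leading values, with Map6 (0.923) and Nbea (0.922).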

How the data were processed

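According to the labels and methods, nuclei of thalamic tissue were isolated in citric acid, processed on the 10x Genomics platform and counted by the authors with Cell Ranger 1.2.0 against mm10. What the authors deposited is a matrix of raw UMI counts (genes by barcodes) for every library. Whether introns or strand were used in counting is not given in the sources used here.

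The barcode filter required over 50 genes and a mitochondrial share of UMIs under 5%. A nucleus took the class whose marker panel scored highest, with at least 3 markers detected and a lead of 0.25 over the next class, a scoring rule set after the data had been seen. The panels covered neurons, astrocytes, oligodendrocytes, OPC, microglia, macrophages, T and NK cells and vascular cells, of which the last 3 served only to remove nuclei, and 3494 nuclei were left without a class. Neurons were GABA or glutamatergic with at least 2 UMIs of Gad1 and Gad2, or of Slc17a6, that made up at least 80% of the UMIs of the 3 genes, which left out 4645 neurons below 2 UMIs and 1981 mixed neurons. Doublets were kept in the main setting, and an alternative removed the 2213 nuclei with the highest scores against simulated sums of 2 nuclei (0.8% per 1000 nuclei). The share removed rises with the nuclei of a library, so NS lost 749 and 869 nuclei and COL 281 and 314.

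UMIs were summed per library and class and given as CPM, scaled to a sum of 1000000. The sums were tested with the quasi-likelihood F test of edgeR 4.0.16 (TMM, filterByExpr, Benjamini-Hochberg over all genes, threshold 0.05, with limma 3.58.1 and R 4.3.3), with the library as a block where classes were compared, and SE was taken from the fold change and F. The fits of glia against neurons took 1 estimate of the spread from all 24 sums, which come from 4 libraries. DESeq2 1.42.0 was an alternative. Subunit shares were compared with exact permutation tests of the library values. The edgeR fit was first checked on simulated counts for some of the comparisons, with the same spread for all genes. DESeq2 and the permutation tests were not checked in this way. Promoters were from RefSeq (GRCm38.p6) and gene models from GENCODE M21. Gene length is the span of the model. Other values came from Python 3.11.15 with numpy 2.4.6, scipy 1.17.1, pandas 2.3.3, scikit-learn 1.9.0 and matplotlib 3.10.9.

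The members and gene lists were chosen with earlier results of these data known. All 10 members were named in every comparison, and of each list of related genes the count called and up to 4 called genes with the largest fold change, with the 2 genes of highest correlation per member. Some genes of these lists that the rule names are not reported here. The alternatives were RLE normalization, no filter, a replicate block, each library left out, doublets removed, nuclei thinned to 2000 UMIs before gating, a larger lead of 0.5, stricter neuron gates (4 UMIs, or no UMI of the other class) and the neuron subsets. Thinning after gating and a comparison of Tcf7l2-positive with Dlx6os1-negative neurons were added after the data had been seen, as were the values by gene length and the detection shares.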

Additional observations from a re-analysis of the deposited data

Results flagged for a closer look

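In 4 cases, both COL libraries lay above both NS libraries for a member in one class and below them in another. Of the 10 members this held for 1 between oligodendrocytes (higher) and astrocytes (lower), for 2 between oligodendrocytes and microglia and for 1 between GABA neurons and microglia, where it held for 1.32%, 2.81% and 2.25% of all genes. The differences between the classes were not tested. For Grin2b, oligodendrocytes had 191 and 181 CPM in NS and 271 and 224 CPM in COL, whereas astrocytes had 397 and 411 against 383 and 294 CPM, and the log2 fold changes were 0.72 apart. Microglia had 435 and 571 CPM of Grin2b in NS and 376 and 329 CPM in COL, which put them 0.97 apart from oligodendrocytes. For Grik1, microglia had 158 and 174 CPM in NS and 157 and 150 CPM in COL. GABA neurons (515 and 437 against 612 and 550 CPM) were 0.49 apart from them, and oligodendrocytes (162 and 188 against 293 and 232 CPM) 0.74 apart. In the fit, Grin2b in microglia turned its sign under 3 of 12 alternatives, Grik1 in microglia under 5 and Grin2b in astrocytes under 1. Of these values, Grik1 in oligodendrocytes was the one that passed the test between COL and NS.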

How the results depend on the processing

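Over the 50 member values that were called, none of 402 alternative values changed sign, 356 kept the call and 46 lost it. Of the 90 that were not called, 39 changed sign under at least 1 alternative, and 48 of 988 alternative values gained a call. Of the 24 uncalled values whose COL and NS libraries were separate, 7 changed sign in the fit, namely Grik2 in glutamatergic neurons, Grin1 in GABA neurons, Grin2b in astrocytes, Gria2 in oligodendrocytes, and Grin1, Grin2b and Grik1 in microglia. All counts below are of members called, unless genes are named, and causes were not tested beyond what each setting removes.

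Without the filter on low counts, 2 members were called between COL and NS in GABA neurons and 1 in astrocytes. With doublets removed there were 6 in astrocytes and 3 (all higher) in microglia. With nuclei thinned before gating there were 1 in astrocytes, 0 in OPC, 4 (all higher) in microglia and 2 between GABA and glutamatergic neurons, a setting that left 39 to 70 glutamatergic neurons per library. With nuclei thinned after gating there were 1 in astrocytes and 0 in OPC. RLE normalization and the larger lead gave 0 in OPC, DESeq2 gave 0 in microglia, and 1 UMI of Dlx6os1 gave 1. With a library left out, the counts ranged from 0 to 1 in astrocytes, 1 to 8 in oligodendrocytes, 0 to 3 in OPC, 0 to 1 in microglia and 3 to 4 between the neuron classes. The difference in the Grik1 share between neuron classes then ranged from -0.71 to 1.74 percentage points and turned its sign.

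The labels number the replicates but do not say that a number marks a shared batch. The correlation of same-numbered libraries' deviations from their group means was 0.105 in glutamatergic neurons, 0.143 in GABA neurons, 0.109 in astrocytes, 0.165 in oligodendrocytes, 0.07 in OPC and 0 in microglia, so the numbers were not taken to pair the libraries, and whether same-numbered libraries share a batch was not tested. With the replicate block, 0 members were called in OPC and 0 in microglia, 5 in oligodendrocytes and 0 in the other classes, and 712 genes were called in glutamatergic neurons, 1472 in GABA neurons and 2632 in astrocytes.

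Counts over all genes were 0 in both neuron classes in the main setting. DESeq2 gave 650 and 1129, no filter 2192 and 3489, thinning after gating 135 and 87 and thinning before it 0 and 78. Leaving out a library gave 0 to 2267 and 0 to 1984, with the highest counts without COL replicate 2. In astrocytes (1677) DESeq2 gave 910, no filter 2773, thinning before gating 619 and after it 992, and in OPC (2219) the same settings gave 937, 3046, 872 and 1127. In microglia (2566) DESeq2 gave 1361 and thinning 1371 and 1554. Between the neuron classes (4760), thinning gave 438 before and 1919 after gating, and 1 UMI of Dlx6os1 gave 366 genes against 195. With a library left out, the counts were 954 to 2065 in astrocytes, 2114 to 6815 in oligodendrocytes, 702 to 3658 in OPC, 1686 to 3356 in microglia, 2875 to 3809 for Tcf7l2, 78 to 140 for Dlx6os1 and 0 to 134 for the difference between the neuron classes. Against neurons, thinning before gating gave 4692 genes in astrocytes, 5869 in oligodendrocytes, 3505 in OPC and 6212 in microglia, with 8, 9, 8 and 10 members.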

Other observations

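Long genes were higher in COL in all 6 classes. The median log2 fold change of tested genes of at least 100 kb and of shorter genes was 0.16 and -0.06 in glutamatergic neurons, 0.29 and -0.06 in GABA neurons, 0.28 and -0.10 in astrocytes, 0.22 and -0.08 in OPC and 0.15 and -0.05 in microglia. In astrocytes 12.8% of the long and 3.16% of the shorter genes rose, in OPC 16.3% and 4.82%, and in microglia 15.3% and 8.65%.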
